A study of Caenorhabditis elegans with 8 samples.

Results

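Cytoplasmic dynein, its cofactor dynactin and the dynein regulator LIS1 were examined through 8 of the 46739 gene IDs measured by RNA sequencing in germlines of Caenorhabditis elegans. The genes were chosen by symbol: the dynein chains dhc-1, dli-1 and dlc-1, the dynactin subunits dnc-1, dnc-2, dnc-3 and dnc-4, and lis-1. All 8 were found in the tables and passed the filter on low values at both temperatures. dnc-3 was the starting point, because its values were lower in nmad-1 germlines at both temperatures. Its own values are therefore given as a description with no test, and the question put to the data was whether the other 7 genes were lower as well.

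RNA was compared between nmad-1 and WT worms at 20°C and at 25°C, and each of these 4 groups had 2 libraries. The nmad-1 worms carried the ok3133 deletion allele of nmad-1, a gene of the AlkB family of demethylases, and the WT worms were of the N2 Bristol strain. Stage was labelled L4 in all groups, no age in days was given, all worms were fed dam- dcm- bacteria, and mRNA came from the extracted germlines of 100 worms in each group. Each library is thus a pool of animals, and 1 deletion allele stands for the loss of nmad-1. The 2 libraries of a group were described as biological replicates. Values are expected read counts per gene, divided by a size factor of each library within a temperature, and are called normalized counts below. The letters A and B tell the libraries of a pair apart and carry no order.

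Cytoplasmic dynein is the motor that walks towards the minus ends of microtubules. A heavy chain carries the motor domain, while intermediate, light intermediate and light chains hold the complex together and bind cargo. Dynactin is a multi-subunit cofactor built around a short actin-like filament, and a shoulder complex links that filament to the arm that binds dynein and microtubules. In the C. elegans gonad and early embryo, dynein positions nuclei and spindles, takes part in chromosome movements of meiotic prophase through the nuclear envelope, and moves cargo along microtubules.

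The estimated depth ran between 18451560 and 33429408 reads per library. nmad-1 library A at 20°C stood apart from the others: ribosomal RNA genes held 34.8% of its total, against 22.2% to 28.5% in the other 7 libraries, and the median absolute log2 gap between libraries A and B was 0.45 in that group, against 0.16 to 0.21 in the other 3 groups. At 25°C the total of the normalized counts was 22505100 and 21937600 in nmad-1 libraries, against 33108100 and 32929700 in WT libraries, so the scaling used by the authors bears on every level at that temperature. The targeted gene followed its labels. nmad-1 had 114 and 131 normalized counts in nmad-1 germlines, against 540 and 471 in WT germlines, at 20°C, and 170 and 171 in nmad-1 germlines, against 764 and 753 in WT germlines, at 25°C. Markers of germ cells were present in every library. Their 20 genes summed to 127633 and 184387 in nmad-1 libraries, against 185971 and 178729 in WT libraries, at 20°C, and to 139226 and 135628 in nmad-1 libraries, against 240208 and 253654 in WT libraries, at 25°C.

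dnc-3 encodes the p24 subunit of the dynactin shoulder and lies on chromosome II. At 20°C its normalized counts were 189 and 270 in nmad-1 germlines, against 798 and 813 in WT germlines. At 25°C they were 207 and 215 in nmad-1 germlines, against 917 and 1076 in WT germlines. No nmad-1 library came near a WT library at either temperature, and the nmad-1 mean was 0.285 of the WT mean at 20°C and 0.212 of it at 25°C. On the log2 scale the difference of nmad-1 from WT was -1.83 ± 0.29 at 20°C and -2.23 ± 0.14 at 25°C (standard error from limma, n = 2 each). These values chose the gene and are not tested.

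Among the dynein chains, dhc-1 encodes the heavy chain, which holds the motor domain, and lies on chromosome I. It had 18958 and 19659 normalized counts in nmad-1 germlines, against 21228 and 23476 in WT germlines, at 20°C. At 25°C it had 13093 and 17471 in nmad-1 germlines, against 30979 and 25861 in WT germlines. The groups did not overlap at either temperature, but at 20°C the log2 difference of -0.21 ± 0.25 did not pass the test (adjusted p = 0.95 in limma). At 25°C dhc-1 was lower by a log2 difference of -0.90 ± 0.15 (adjusted p = 0.0013).

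dli-1 encodes the light intermediate chain, through which dynein binds many cargo adaptors, and lies on chromosome IV. Its normalized counts at 20°C were 1511 and 2257 in nmad-1 germlines, against 2314 and 2176 in WT germlines. At 25°C they were 1535 and 1701 in nmad-1 germlines, against 2782 and 2851 in WT germlines. The groups overlapped at 20°C, where the log2 difference was -0.28 ± 0.27 (adjusted p = 0.95), and stood apart at 25°C, where it was -0.80 ± 0.10 (adjusted p = 3.9e-04).

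dlc-1, on chromosome III, encodes a light chain of the LC8 family, which also binds many proteins outside dynein and in C. elegans serves as a cofactor of germline RNA-binding proteins. It had 5330 and 6304 normalized counts in nmad-1 germlines, against 8325 and 6726 in WT germlines, at 20°C. At 25°C it had 4088 and 3698 in nmad-1 germlines, against 8510 and 9509 in WT germlines. At 20°C the highest nmad-1 value lay just under the lowest WT value, and the log2 difference of -0.37 ± 0.25 did not pass (adjusted p = 0.94). At 25°C the nmad-1 mean was 0.432 of the WT mean, a log2 difference of -1.21 ± 0.10 (adjusted p = 1.9e-04). That was the largest difference of the 7 tested genes.

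Of the dynactin subunits, dnc-1 encodes p150Glued, the arm that binds dynein and microtubules, and lies on chromosome IV. Its normalized counts were 3584 and 4308 in nmad-1 germlines, against 4795 and 4893 in WT germlines, at 20°C. At 25°C they were 4192 and 4325 in nmad-1 germlines, against 5906 and 6006 in WT germlines. The groups stood apart at both temperatures. The log2 difference was -0.30 ± 0.25 at 20°C (adjusted p = 0.95) and -0.48 ± 0.086 at 25°C (adjusted p = 0.0016).

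dnc-2, on chromosome III, encodes p50 dynamitin, a partner of DNC-3 in the shoulder. It had 1408 and 1776 normalized counts in nmad-1 germlines, against 1811 and 1998 in WT germlines, at 20°C. At 25°C it had 1437 and 1359 in nmad-1 germlines, against 2028 and 2115 in WT germlines. The gap between the groups was small at 20°C, with a log2 difference of -0.27 ± 0.26 (adjusted p = 0.95), and clear at 25°C, with -0.57 ± 0.10 (adjusted p = 0.0014).

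dnc-4, on chromosome IV, encodes p62, a subunit at the pointed end of the actin-like filament. Its normalized counts at 20°C were 722 and 998 in nmad-1 germlines, against 960 and 983 in WT germlines. At 25°C they were 1099 and 1046 in nmad-1 germlines, against 1399 and 1356 in WT germlines. The groups overlapped at 20°C (log2 difference -0.19 ± 0.27, adjusted p = 0.95). At 25°C they did not, and dnc-4 had the smallest difference of the 7 tested genes, -0.36 ± 0.10 (adjusted p = 0.013).

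lis-1, on chromosome III, encodes a regulator that binds the dynein motor domain and helps it assemble with dynactin. It had 2015 and 2791 normalized counts in nmad-1 germlines, against 2872 and 3039 in WT germlines, at 20°C. At 25°C it had 2681 and 2667 in nmad-1 germlines, against 3608 and 3937 in WT germlines. The nmad-1 values lay under the WT values at both temperatures. The log2 difference was -0.32 ± 0.26 at 20°C (adjusted p = 0.95) and -0.50 ± 0.093 at 25°C (adjusted p = 0.0020).

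**Figure D1:**
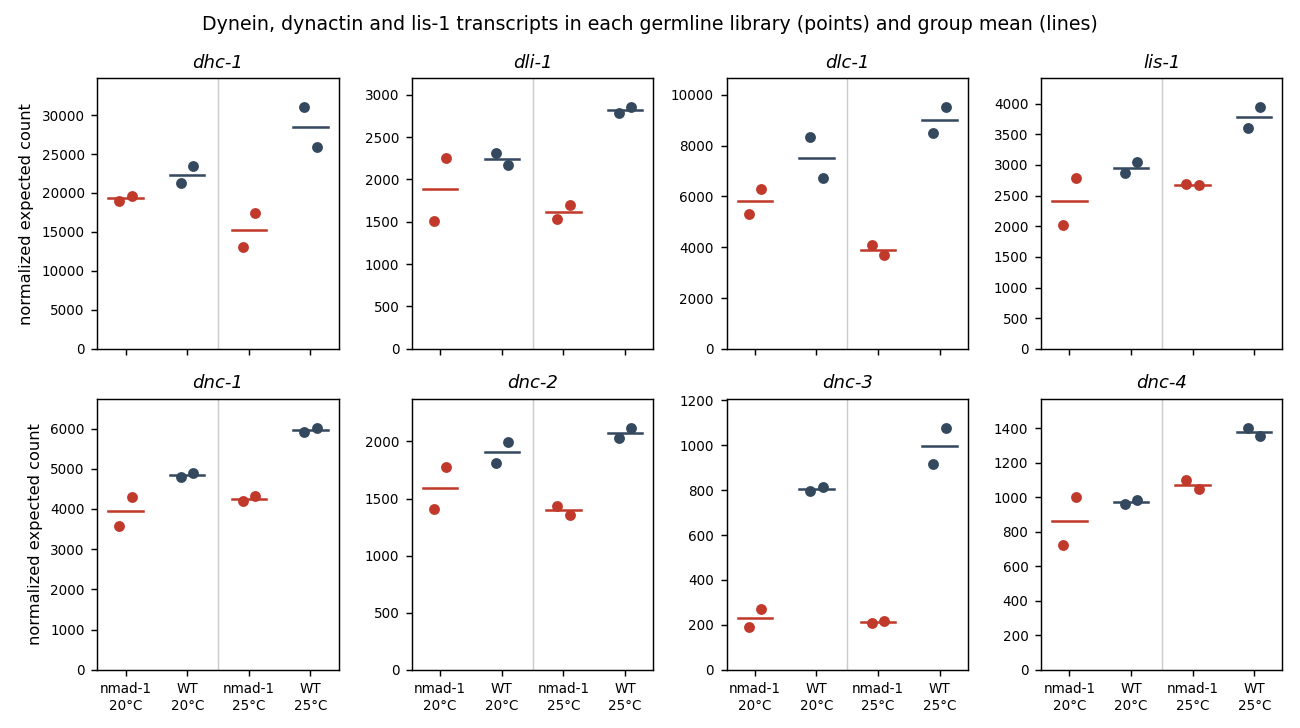
Normalized counts of the 8 genes in each library (points, linear axis from 0) with the mean of each group (lines), for nmad-1 and WT at 20°C and at 25°C, 2 libraries each. dnc-3 lies between 189 and 270 in the 4 nmad-1 libraries, against 798 to 1076 in the 4 WT libraries. Of the other 7 genes, both nmad-1 values lie under both WT values in 5 at 20°C and in all 7 at 25°C. The same holds for 19.1% of all genes tested at 20°C and 46.7% at 25°C.

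At 20°C none of the 7 genes passed the test in limma, and among all 12260 genes tested 0.139% were lower and 0.343% higher. None of the 7 was at an unadjusted p under 0.05 either, beside 844 of all 12260 genes tested. In 5 of the 7 genes both nmad-1 values lay under both WT values at 20°C, a pattern that 19.1% of all genes tested showed in that direction. The median log2 difference of the 7 genes was -0.28, beside -0.05 over all genes tested. Over genes that averaged 100 or more, as all 7 did, it was -0.13, and over the 20 germ cell markers -0.31. Library A of the nmad-1 group gave the lowest nmad-1 value in each of the 8 genes. Without it the differences of the 7 genes ran between -0.25 and 0.039 and none passed. Without library B they ran between -0.57 and -0.24, and 6 of the 7 passed, but 3144 of all genes tested were then lower.

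At 25°C all 7 genes passed the test as lower in nmad-1 germlines under the deposited scaling, where 38% of the 11955 genes tested were lower and 32.8% higher. Among genes that averaged 100 or more normalized counts, as all 7 did, 59.9% were lower. The median log2 difference of the 7 genes was -0.57, beside -0.40 over genes that averaged 100 or more and -0.088 over all genes tested. In all 7 genes both nmad-1 values lay under both WT values, as in 46.7% of all genes tested. Leaving out 1 library at a time kept 6 or 7 of the 7 calls. In such pooled tissue, fewer germ cells and less of a transcript in each germ cell cannot be told apart.

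The direction at 25°C depended on how the libraries were set against each other, since the scalings moved the median of all genes between -0.088 and 0.68. With the upper quartiles set equal, 6 of the 7 genes were lower, beside 24.3% of all genes tested, and dnc-4 did not pass. With the totals set equal, or the totals outside ribosomal RNA, dlc-1 alone was lower, where 6.44% and 5.86% of all genes tested were lower. With the germ cell markers set equal, dlc-1 was lower, where 2.84% of all genes tested were lower, and dnc-1, dnc-4 and lis-1 were higher, where 66.5% were higher. dlc-1 kept its direction and its call at 25°C under each of these scalings, at -1.02 with equal upper quartiles, -0.64 with either equal total and -0.44 with equal germ cell markers. dhc-1 and dli-1 kept a negative difference under each of them and passed under the deposited and the upper quartile scaling. The sign of dnc-1, dnc-2, dnc-4 and lis-1 turned positive under the totals and the germ cell markers. The difference of dnc-3 lay between -2.23 and -1.46 under the same 5 scalings.

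**Figure D2:**
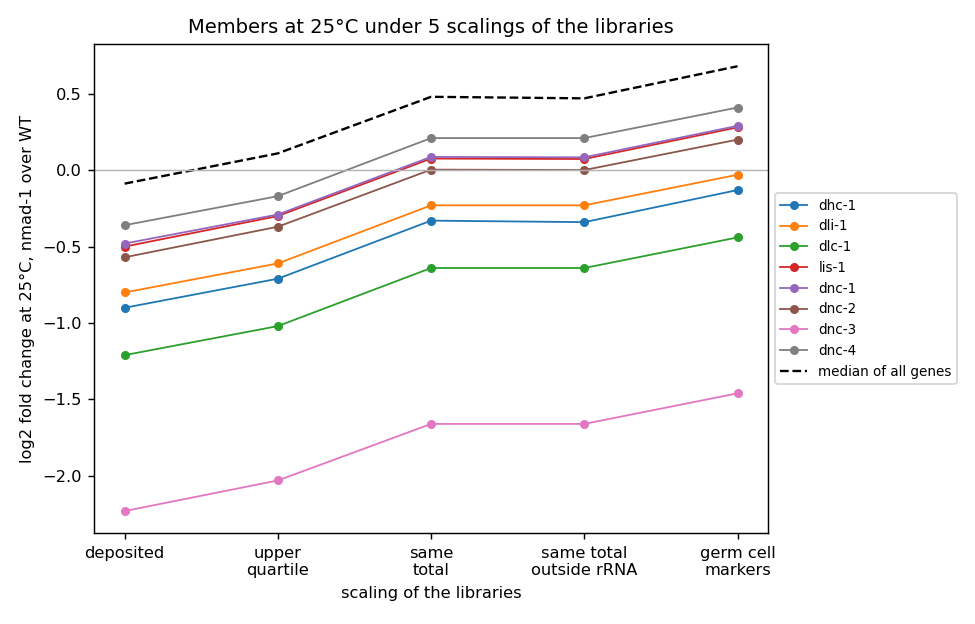
Log2 difference of nmad-1 over WT at 25°C (y axis) for the 8 genes under 5 scalings of the libraries (x axis), with the median over all genes tested as a dashed line. The median moves between -0.088 and 0.68 with the scaling, and all 8 genes lie below it. A scaling shifts all genes of a library together, so their places under the 5 scalings relative to the median are 1 result. Over genes averaging 100 or more the median was -0.40 under the deposited scaling, and dnc-4 at -0.36 lay above that. dnc-3, dlc-1, dhc-1 and dli-1 are below 0 under all 5, while dnc-1, dnc-2, dnc-4 and lis-1 cross 0.

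Markers of cell types moved at 25°C alongside the 7 genes. All 20 germ cell markers were lower under the deposited scaling, with a median log2 difference of -0.78. Higher in nmad-1 were 8 of 10 muscle, 8 of 10 intestine, 8 of 10 neuron and 7 of 8 tested sperm markers, and the remaining tested sperm marker was lower. Of all genes tested, 38% were lower and 32.8% higher, and of genes averaging 100 or more 59.9% were lower. Of 9 tested markers of gonadal sheath and spermatheca, 4 were lower and 2 higher, and of 6 tested epidermis and cuticle markers 1 was lower and 2 were higher, with 1 of the 10 listed at 0 in all 4 libraries. The summed intestine markers were 92342 and 314608 in nmad-1 libraries, against 41870 and 76856 in WT libraries, and the summed muscle markers were 25797 and 29697 in nmad-1 libraries, against 11001 and 15686 in WT libraries. The part of these shifts in the values of the 8 genes was not tested. At 20°C 1 of 10 intestine markers passed in limma, as higher, where 0.343% of all genes tested were higher, and no marker of the other 6 lists did. At an unadjusted p under 0.05 were 6 of 7 tested sperm markers, whose median log2 difference was 2.2, and 2 of 9 tested epidermis and cuticle markers. So were 1 of 10 muscle markers, 1 of 9 tested markers of gonadal sheath and spermatheca and none of the germ cell and neuron markers. Of all 12260 genes tested, 844 were at an unadjusted p under 0.05. The summed muscle markers were 91673 and 38690 in nmad-1 libraries, against 43054 and 56877 in WT libraries.

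A level set against the other subunits of the same library does not depend on the scaling of that library. The log2 level of dnc-3 minus the mean of the other 7 genes was -3.84 and -3.68 in nmad-1 libraries, against -2.22 and -2.20 in WT libraries, at 20°C. At 25°C it was -3.77 and -3.75 in nmad-1 libraries, against -2.33 and -2.11 in WT libraries. The difference of nmad-1 from WT on this scale was -1.55 at 20°C and -1.54 at 25°C, nearly the same at both. This restates values that chose the gene, so it carries no test.

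For the other genes the mean was taken over the remaining 6, with dnc-3 left out. At 25°C dlc-1 lay 0.62 and 0.40 above that mean in nmad-1 libraries, against 1.03 and 1.20 in WT libraries, a difference of -0.61. dnc-4 lay at -1.59 and -1.73 in nmad-1 libraries, against -2.01 and -2.08 in WT libraries, a difference of 0.38. Both genes stood apart between the genotypes. Because each gene is set against the mean of the others, a lower dlc-1 raises the rest by construction, so that differences of both signs must occur. dnc-1 (difference 0.24), lis-1 (0.23) and dnc-2 (0.14) were also higher relative to the mean in both nmad-1 libraries than in both WT libraries, dli-1 was lower (-0.13), and dhc-1 overlapped (-0.25). The share of all genes that stood apart on this scale was not computed at either temperature. With the libraries scaled on the 7 genes, 57.7% of all genes tested passed as higher and 3.68% as lower at 25°C. A higher level relative to these genes was thus common. At 20°C dnc-4 alone of the 7 did not overlap, with -2.24 and -2.09 in nmad-1 libraries, against -2.28 and -2.24 in WT libraries, a gap smaller than the spread between the nmad-1 libraries. With 2 libraries against 2, an exact two-sided permutation test of 1 ratio cannot give a p under 0.333, so none was run, and levels relative to the other genes were tested only in the limma fit that follows.

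**Figure D3:**
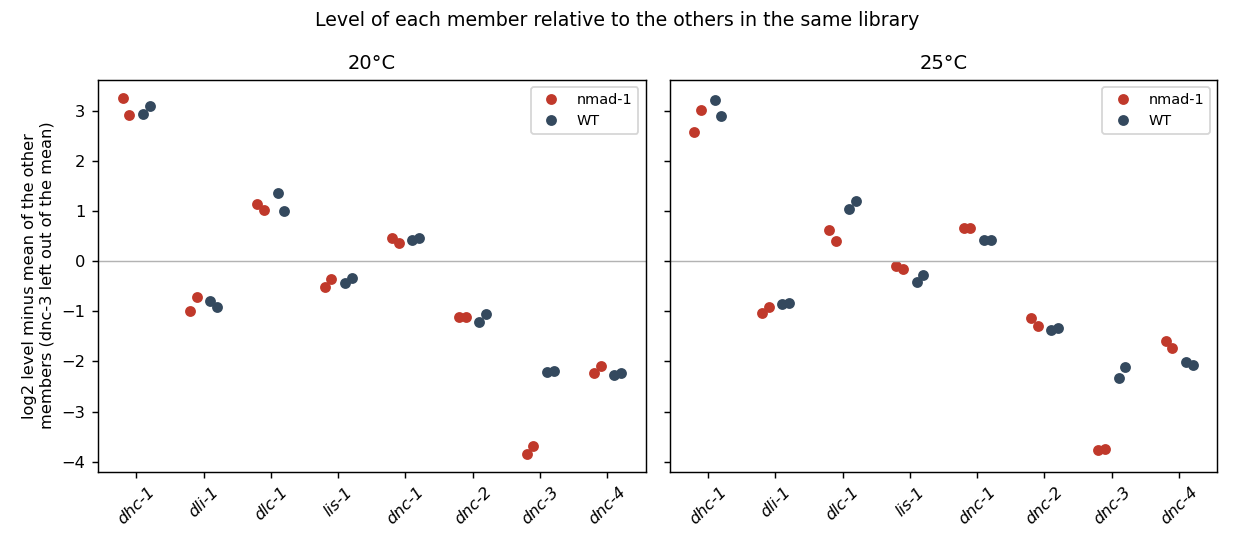
Log2 level of each gene minus the mean of the other genes in the same library (y axis, dnc-3 left out of the mean), at 20°C and 25°C, with 1 point per library, nmad-1 left of WT. dnc-3 lies between -3.84 and -3.68 in the nmad-1 libraries, against -2.33 to -2.11 in the WT libraries, and dlc-1 (difference -0.61) and dnc-4 (0.38) stand apart between genotypes at 25°C, on a scale where a lower value of 1 gene raises the others.

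The whole tables were also fitted with the libraries scaled on the mean of the 7 genes, an alternative chosen after the data were seen, in which the differences of the 7 balance out by construction. At 25°C dlc-1 was then lower (log2 difference -0.52, adjusted p = 0.0025 in limma), where 3.68% of all genes tested were lower, and dnc-4 was higher (0.33, adjusted p = 0.036), where 57.7% were higher. The other 5 genes did not pass, and at 20°C none of the 7 did.

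Whether the genotype difference itself changed with temperature was tested by the interaction in limma over all 8 libraries. Among 11265 genes tested, 1.25% had a lower and 8.07% a higher nmad-1 to WT difference at 25°C than at 20°C. dlc-1 alone of the 7 genes passed, with a change of -0.84 ± 0.24 (adjusted p = 0.046). It passed under 5 of 18 settings, with adjusted p between 0.0072 and 0.24, so the call is close to the threshold. The other 6 had changes between -0.69 (dhc-1, adjusted p = 0.10) and -0.17 (dnc-4, adjusted p = 0.66). Without nmad-1 library A at 20°C all 7 passed, beside 3549 of all genes tested in that direction, and without any one of the other 7 libraries none did.

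The 2 tables were normalized separately, so levels across temperatures are given per 1000000 normalized counts outside ribosomal RNA genes of the same library. On that scale dnc-3 was at 12.6 ± 1.28 in nmad-1 germlines and 38.6 ± 1.26 in WT germlines at 20°C, and at 12.8 ± 0.127 in nmad-1 germlines and 40.5 ± 2.49 in WT germlines at 25°C (SD, n = 2 each). Its level thus differed little between the temperatures within a genotype. dlc-1 was at 323 ± 9.96 in nmad-1 germlines and 360 ± 47.3 in WT germlines at 20°C, and at 235 ± 21 in nmad-1 germlines and 367 ± 9.87 in WT germlines at 25°C. In WT germlines its levels at the 2 temperatures were within the spread of the libraries, and the nmad-1 germlines at 25°C were the lowest group. dhc-1 was at 922 ± 170 in nmad-1 germlines and 1163 ± 207 in WT germlines at 25°C, a gap within the spread. dnc-2 was nearly level, with 84.5 ± 4.88 in nmad-1 germlines and 84.4 ± 1.86 in WT germlines at 25°C. dnc-4 was at 47.4 ± 3.77 in nmad-1 germlines and 46.6 ± 1.7 in WT germlines at 20°C, and at 64.8 ± 3.48 in nmad-1 germlines and 56.2 ± 4.16 in WT germlines at 25°C.

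Levels of different genes were compared as normalized counts per kilobase of coding length. Untranslated regions were left out of that length, which can raise short genes most, so the order between genes is approximate. In WT germlines at 20°C dlc-1 was far above the rest at 28185 ± 4237, followed by lis-1 at 2439 ± 97.2. dnc-2 (1918 ± 133), dli-1 (1689 ± 73.5), dhc-1 (1631 ± 116) and dnc-3 (1570 ± 20.7) came next, and neighbours in this order among dli-1, dhc-1 and dnc-3 overlapped. dnc-1 (1195 ± 17) and dnc-4 (784 ± 13.4) were lowest. In nmad-1 germlines at 20°C dnc-3 was the lowest of the 8 at 447 ± 111, under dnc-4 at 694 ± 158. At 25°C dnc-3 was again lowest in nmad-1 germlines, at 412 ± 11.6 per kilobase, while in WT germlines at 1943 ± 219 it lay above dnc-1 (1470 ± 17.4) and dnc-4 (1112 ± 25) and within its own SD of dhc-1 (2074 ± 264), dnc-2 and dli-1 (2119 ± 36.5). DNC-2 and DNC-3 sit in the same shoulder. Their transcripts were at 1408 ± 55.5 and 412 ± 11.6 per kilobase in nmad-1 germlines at 25°C, against 2086 ± 61.4 and 1943 ± 219 in WT germlines.

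The remaining subunits of the complex were taken from a list of 9 genes: the dynein intermediate chain dyci-1, the roadblock light chain dyrb-1, the Tctex light chain dylt-1, the dynactin pointed-end subunits dnc-5 (p25), dnc-6 (p27) and arp-11, the actin-related filament protein arp-1, and the capping protein subunits cap-1 and cap-2. At 20°C none of the 9 passed in limma, and their differences ran between -0.42 (dyrb-1) and -0.082 (arp-1). None was at an unadjusted p under 0.05, beside 844 of all 12260 genes tested. At 25°C 8 of the 9 were lower, with a median log2 difference of -0.48, where 38% of all genes tested and 59.9% of genes averaging 100 or more, as all 9 did, were lower. That direction held with equal upper quartiles, where 5 of the 9 and 24.3% of all genes were lower, and turned with equal totals (median 0.10, none called) and with equal germ cell markers (median 0.30, 5 of the 9 and 66.5% of all genes higher).

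dnc-5 showed the largest difference of the 9 at 25°C. It had 493 and 453 normalized counts in nmad-1 germlines, against 806 and 846 in WT germlines, a log2 difference of -0.80 ± 0.12 (adjusted p = 9.1e-04). dyrb-1 had 573 and 562 in nmad-1 germlines, against 911 and 982 in WT germlines (-0.74 ± 0.12, adjusted p = 0.0010). The groups stood well apart in both genes. dylt-1 was the exception, with 1440 and 1163 in nmad-1 germlines, against 1562 and 1561 in WT germlines (-0.27 ± 0.12, adjusted p = 0.079). Of these 9 and the 7 above, 15 of 16 genes were lower at 25°C under the deposited scaling, with differences between -1.21 and -0.27, beside 59.9% of genes averaging 100 or more. Next to these, dnc-3 was at -2.23.

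**Figure D4:**
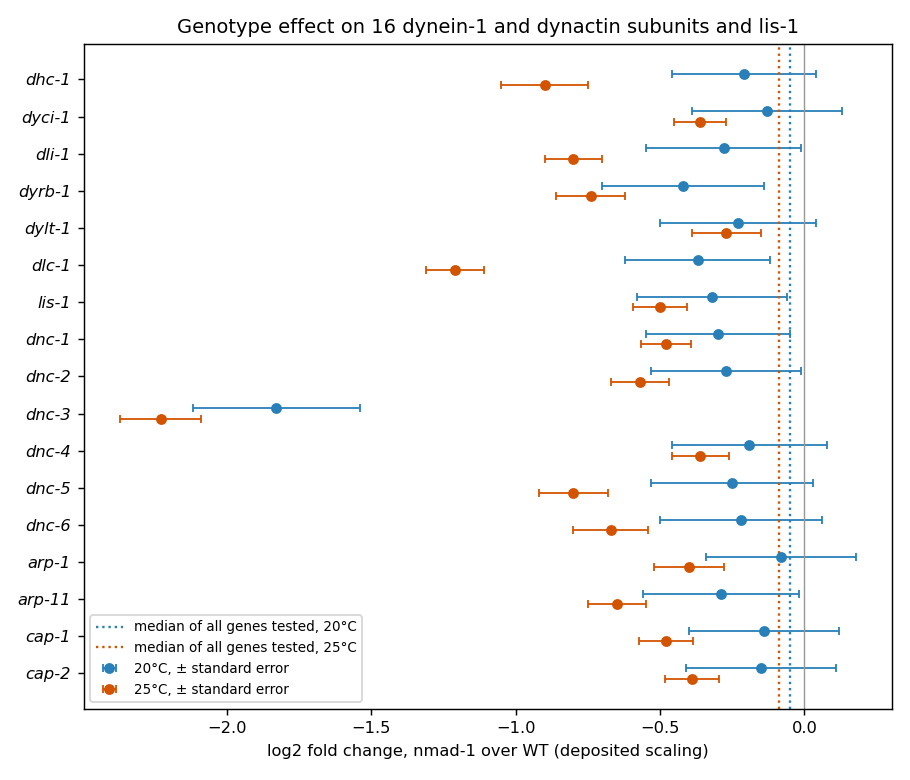
Log2 difference of nmad-1 over WT (x axis, points with standard errors from limma) for 16 dynein and dynactin subunits and lis-1 at 20°C and 25°C under the deposited scaling, with the medians of all genes tested as dotted lines. dnc-3, at -1.83 and -2.23, lies to the left of the other 16 genes, which run between -0.42 and -0.082 at 20°C and between -1.21 and -0.27 at 25°C.

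Other light chains of the LC8 and Tctex families had low values. Of 7 listed, dlc-2 and dlc-5 were tested and neither passed, and the other 5 had a mean under 10 normalized counts at 25°C. dlc-2 had 44.6 and 45 normalized counts in nmad-1 germlines, against 36.6 and 25.2 in WT germlines, at 25°C. It is a family member of dlc-1, and whether reads were divided between the 2 genes in the counting was not tested.

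Regulators and cargo adaptors of dynein were listed as 14 genes, all tested. At 25°C 11 were lower and 1 was higher under the deposited scaling, where 38% of all genes tested were lower and 32.8% higher, and 59.9% of genes averaging 100 or more, as all 14 did, were lower. Their median log2 difference of -0.73 kept its sign with equal totals (-0.16, 5 lower and 4 higher) and turned with equal germ cell markers (0.042, 1 lower and 4 higher). Of all genes tested, 6.44% were lower and 50.4% higher with equal totals, and 2.84% were lower and 66.5% higher with equal germ cell markers. nud-1, a NudC family partner of the dynein pathway, had 1350 and 1274 normalized counts in nmad-1 germlines, against 3156 and 3593 in WT germlines (-1.36 ± 0.10, adjusted p = 1.8e-04). sun-1, the inner nuclear membrane protein that links meiotic chromosomes to dynein, had 2426 and 2156 in nmad-1 germlines, against 4362 and 4540 in WT germlines (-0.96 ± 0.10, adjusted p = 2.4e-04). lin-5, the NuMA-like protein that anchors dynein at the cell cortex, had 3937 and 4208 in nmad-1 germlines, against 7290 and 7625 in WT germlines (-0.87 ± 0.090, adjusted p = 2.4e-04). All 3 genes had nmad-1 values well under the WT values. bicd-1, a BicD family cargo adaptor, went the other way, with 323 and 498 in nmad-1 germlines, against 177 and 161 in WT germlines (1.24 ± 0.22, adjusted p = 0.0018). None of the 14 passed at 20°C in limma, and 1 did at an unadjusted p under 0.05, beside 844 of all 12260 genes tested.

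Tubulins, the subunits of the microtubule track, divided at 25°C into 5 lower and 4 higher of 9 tested, counts that were 3 lower and 4 higher with equal totals and 2 lower and 5 higher with equal germ cell markers, beside the same shares of all genes as above. The lower ones named by p were the abundant tbb-1 (log2 difference -1.14), tba-1 (-1.09) and tba-2 (-1.0). tba-1 and tba-2 are close paralogs, as are tbb-1 and tbb-2, so their reads may have been divided between them. The higher ones were tba-4 (2.09), the touch neuron tubulins mec-7 (1.88) and mec-12 (1.15), and tbb-4 (1.83, adjusted p = 0.021). These 4 had far lower levels than the abundant ones. At 25°C tbb-4 had 34.3 and 20.2 normalized counts in nmad-1 germlines, against 9.9 and 4.39 in WT germlines. For mec-7 the values were 82.4 and 62 in nmad-1 germlines, against 22.8 and 15.4 in WT germlines. For tbb-1 they were 10587 and 10723 in nmad-1 germlines, against 21538 and 25616 in WT germlines. tba-4 had 200 and 323 normalized counts in nmad-1 germlines, against 52.1 and 66.9 in WT germlines, at 25°C, and 129 and 195 in nmad-1 germlines, against 166 and 195 in WT germlines, at 20°C. The dynein heavy chain of cilia, che-3, was higher at 25°C with 76.6 and 91.5 in nmad-1 germlines, against 54.5 and 35.1 in WT germlines (0.92 ± 0.33, adjusted p = 0.034), and of the 3 other genes of its list dhc-4 was tested and did not pass. mec-7, mec-12 and che-3 are known from neurons, and the higher neuron markers at 25°C stand beside them without their part having been tested.

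The 5 annotated genes on each side of dnc-3 on chromosome II were read to see whether the difference was shared with its neighbourhood. W10G11.19 is on the same strand and directly before dnc-3 in the order of the annotation. It had 35.6 and 45.8 normalized counts in nmad-1 germlines, against 29.4 and 33.7 in WT germlines, at 20°C (log2 difference 0.35 ± 0.50, adjusted p = 0.95). At 25°C it had 61.8 and 108 in nmad-1 germlines, against 16.8 and 11 in WT germlines, a log2 difference of 2.50 ± 0.43 (adjusted p = 0.0014). At 25°C it thus moved opposite to dnc-3. apd-3, the next gene out and an adaptor protein complex subunit by name, had 3400 and 3066 in nmad-1 germlines, against 3850 and 4242 in WT germlines, at 25°C (-0.32 ± 0.10, adjusted p = 0.019). lgc-45, ncs-6 and W10G11.2 were tested at 25°C and did not pass, and W10G11.1 was under the filter there. W09G10.7, W09G10.8 and W10G11.23, annotated as ncRNA, and 21ur-14923, annotated as piRNA, were listed at 0 in all 8 libraries. The libraries were made from mRNA, so such RNAs may not have been captured.

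The pattern of dnc-3 over the 8 libraries was compared with those of 8165 other genes as a Euclidean distance between log2 values, each centred on the WT mean of its temperature. The gene with the nearest pattern was nmad-1, the deleted gene, at a distance of 0.457. adh-5, an alcohol dehydrogenase gene by name, followed at 0.855, with 592 and 824 normalized counts in nmad-1 germlines, against 2349 and 2181 in WT germlines, at 20°C, and 860 and 829 in nmad-1 germlines, against 2491 and 2809 in WT germlines, at 25°C. pud-3 (1.06), T07A9.15 (1.07) and Y102A5C.36 (1.13) came next. The 5 genes lie on chromosomes III, IV and V, and dnc-3 on chromosome II. The 7 other members lay farther off, between 2.54 for dlc-1, at rank 302, and 3.52 for dnc-4, at rank 3634. These distances describe a pattern that the choice of dnc-3 set, and they carry no test.

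**Figure D5:**
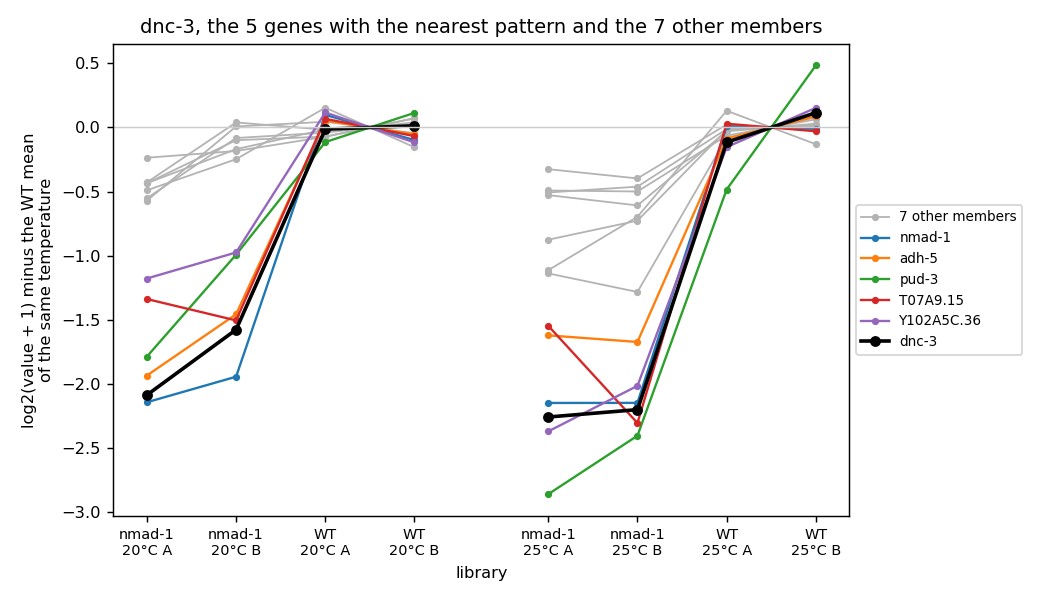
Log2(normalized count + 1) in each library minus the WT mean of the same temperature (y axis) for dnc-3 (black), the 5 genes with the nearest pattern (colours) and the 7 other members (grey), with the 20°C libraries on the left and the 25°C libraries on the right. nmad-1, at a distance of 0.457, runs closest to dnc-3, and the 7 other members run above it in every nmad-1 library.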

How the data were processed

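RNA-seq libraries were made from germline mRNA of nmad-1(ok3133) and N2 worms at 20°C and 25°C. Per the submitters' notes and methods, reads were aligned with Bowtie2 2.2.9 to WS220 (ce10) and quantified with RSEM 1.3.0. The deposited signal is RSEM's expected count divided by a library size factor, 1 table per temperature; that it is so was read from the values. The authors also deposited comparison tables (posterior probabilities, fold changes and group means), which were not used. Columns carry no replicate numbers and were assigned to groups from the comparison named in the sample descriptions. Of 46739 gene IDs, 43720 had a current symbol. Between 90.7% and 91.9% of values were whole multiples of 1 read (within 0.005 reads), too few for a count test. Depth is therefore an estimate.

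Values were transformed as log2(value + 1), genes averaging under 10 in a table were dropped, and linear models without covariates were fitted in limma (version 3.58.1, R version 4.3.3), the variance following a trend on the mean. P-values were adjusted by Benjamini-Hochberg over all genes, threshold 0.05. Fold changes are on that log2 scale, which understates changes of low genes. The procedure was run on simulated counts in which 200 genes were changed by a log2 difference of 2. All simulated libraries shared the same spread and scaling, unlike those here, so that run did not test calls under such differences. WBcel235 gave chromosomes and gene order, so no coordinates are printed. The 8 members and all gene lists were chosen with earlier results of these data known. Named genes were the members, nmad-1, the 9 other subunits, up to 3 genes per direction and list by p at 25°C, 5 neighbours on each side of dnc-3 and the 5 nearest patterns (mean of at least 50 in each table). dlc-2 and dlc-5, dhc-4, tbb-2 and tbb-4 were named in addition, after their values were seen. Alternatives were other scalings, pseudocounts, filters, no variance trend, 1 fit over all 8 libraries and leaving out each library.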

Additional observations from a re-analysis of the deposited data

Results flagged for a closer look

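In 4 of the named genes the nmad-1 difference itself differed between the temperatures by the interaction in limma, where 141 of all genes tested were lower and 909 higher. For dlc-1 the log2 difference of nmad-1 from WT was -0.37 at 20°C and -1.21 at 25°C, a change of -0.84 (adjusted p = 0.046). For tba-4 it was -0.18 at 20°C and 2.09 at 25°C, a change of 2.27 (adjusted p = 0.013). For W10G11.19, a gene next to dnc-3, it was 0.35 at 20°C and 2.50 at 25°C, a change of 2.15 (adjusted p = 0.048), at no more than 108 normalized counts in any library. For Y102A5C.36, which was named for a pattern near that of dnc-3 in these same libraries, it was -1.08 at 20°C and -2.19 at 25°C, a change of -1.12 (adjusted p = 0.047).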

How the results depend on the processing

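No paired analysis was possible because the columns carry no replicate numbers. Of the 7 genes, 7 were lower at 25°C under the deposited scaling. That count was 6 with equal upper quartiles, without the variance trend and in 1 fit over all 8 libraries. dnc-4 did not pass there (adjusted p = 0.26, 0.061 and 0.10 in limma, in that order). The count of lower genes was 1 with equal totals, equal totals outside ribosomal RNA, equal germ cell markers and scaling on the 7 genes. The last was chosen after seeing the data. The count of higher genes, 0 under the deposited scaling, was 3 with germ cell markers and 1 with scaling on the 7 genes. Leaving out 1 library gave 6 to 7 lower at 25°C, 0 to 6 at 20°C (0 with all libraries) and 0 to 7 in the interaction (1 with all). The interaction count was 0 with equal totals, equal totals outside ribosomal RNA, germ cell markers, no filter, no variance trend and a pseudocount of 10.

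Differences that turned positive at 25°C, in the order equal totals, totals outside ribosomal RNA, germ cell markers and scaling on the 7 genes, were 0.087, 0.084, 0.29 and 0.20 for dnc-1, 0.0037, 8.2e-04, 0.20 and 0.12 for dnc-2, 0.21, 0.21, 0.41 and 0.33 for dnc-4, and 0.076, 0.073, 0.28 and 0.19 for lis-1. At 20°C they were 0.0067 for dhc-1 and 0.022 for dnc-4 with totals outside ribosomal RNA, 0.079, 0.0073, 0.022 and 0.094 for dhc-1, dli-1, dnc-2 and dnc-4 with germ cell markers, and 0.067, 0.010 and 0.082 for dhc-1, dnc-2 and dnc-4 with scaling on the 7 genes. Leaving out 1 library gave -0.57 to 0.0082 for dli-1 and -0.43 to 0.039 for dnc-4 at 20°C, positive without nmad-1 library A. In the interaction, in the order equal totals, totals outside ribosomal RNA and germ cell markers, they were 0.33, 0.17 and 0.30 for dnc-1, 0.21, 0.051 and 0.18 for dnc-2, 0.35, 0.19 and 0.32 for dnc-4, and 0.34, 0.17 and 0.30 for lis-1, and leaving out 1 library gave -0.40 to 0.067 for dnc-4 and -0.41 to 0.057 for lis-1, positive without nmad-1 library B at 20°C. By construction a scaling shifts all genes of a library together; which scaling is right was not tested. dnc-3 stayed between -2.09 and -1.54 at 20°C and between -2.34 and -1.46 at 25°C over 15 settings each.

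Over all genes, 17 were lower and 42 higher at 20°C, against 1 to 3144 lower and 4 to 1036 higher when 1 library was left out, and 0 to 31 lower and 0 to 26 higher under the other settings in which the count moved. At 25°C 4545 were lower and 3917 higher, against 340 to 2909 lower and 4368 to 7952 higher under the other planned scalings, 1217 higher among genes averaging 100 or more, and 3263 to 4316 lower and 2399 to 3299 higher when 1 library was left out (2399 without nmad-1 library B). In the interaction 141 were lower and 909 higher, against 12 to 3549 lower and 28 to 2278 higher when 1 library was left out, and 0 lower and 4 higher without the variance trend. With 2 libraries per group, precision at 20°C rests on the nmad-1 pair that differed most.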
